A study of Mus musculus with 12 samples.

Results

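The splicing regulators described here were 10 genes of mouse liver, Nktr, Clk1, Clk2, Clk4, Pnisr, Luc7l3, Srsf5, Srsf11, Srrm2 and Son, whose transcripts are known to keep introns in the nucleus. They were taken by their symbol from a gene table of 41128 rows, of which 23337 carried a symbol, and all 10 were found. The set was drawn up with the difference between conventionalized (CV) and germ-free (GF) livers in view, so that difference is given as a description, with no test of the 10 genes. Livers came from C57BL/6 littermates born germ-free and kept in sterile isolators until weaning at 21 days. GF mice stayed in the isolators, whereas CV mice were moved to cages with used bedding from the animal facility for 3 weeks, and all mice were killed at 6 weeks of age. Each condition had 3 mice labelled male and 3 labelled female, giving the 4 groups GF male, GF female, CV male and CV female and 12 libraries of stranded mRNA sequencing, with 1 mouse to a library.

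Removal of introns is steered by SR proteins, which carry repeats of arginine and serine and mark exons for the spliceosome. CLK kinases phosphorylate SR proteins and release them from nuclear speckles, bodies that store splicing factors around large scaffold proteins. Several of these genes are themselves controlled at splicing, since a part of their polyadenylated transcripts holds back an intron and waits in the nucleus. The deposited values count reads per gene and do not separate exons from introns, so intron retention itself was not measured here.

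Annotated retained-intron transcripts were present for 9 of the 10 genes (GENCODE M21, GRCm38), against 60.9% of the 11208 coding genes tested. The genes were picked as ones that keep introns, so an excess of such transcripts was built into the choice and is only described. Srsf11 had 11 such transcripts, Nktr 8, Clk1 and Clk4 7 each, Clk2 and Srrm2 4 each, Srsf5 3, Luc7l3 and Son 2 each, and Pnisr 0. For Clk1, Clk4, Srsf11, Nktr and Clk2, between 54.8% and 63.8% of all exonic bases were annotated only in a retained-intron transcript, whereas the median coding gene had 7.45%. Which annotation the reads were counted on is not given in the sources used here. Introns of coding transcripts that lay wholly inside an exon of a retained-intron transcript numbered 21, in Nktr, Clk1, Clk2, Clk4 and Srsf5, and all began with GT and ended with AG. They were counted by their coordinates, and some overlapped in Nktr, Clk2, Clk4 and Srsf5, so separate introns are fewer. The shortest measured 21 bases, in Srsf5.

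In Clk1 and in Clk4, a pair of such introns surrounded an exon of 91 bases, and the splice sites are printed to show how alike these related kinase genes are at this place. Each 5' site below holds 3 exon bases and 9 intron bases, and each 3' site holds 18 intron bases and 3 exon bases, with the first and last dinucleotides of the intron in capitals. The Srsf5 intron was held back in 3 annotated transcripts and is printed for comparison with the member that differed least.
Clk1 upstream intron, chr1:58420212-58421082, minus strand, 5' site: gggGTatgagtg
Clk1 upstream intron, 3' site: cccacttgacgtgtccAGaag
Clk1 downstream intron, chr1:58419734-58420120, minus strand, 5' site: gatGTatagaat
Clk1 downstream intron, 3' site: attattcctcttttttAGatg
Clk4 upstream intron, chr11:51272023-51273077, plus strand, 5' site: tcgGTatgagtg
Clk4 upstream intron, 3' site: gcccacttgccgttccAGaag
Clk4 downstream intron, chr11:51273169-51273559, plus strand, 5' site: gatGTatagaat
Clk4 downstream intron, 3' site: ttctctcccttactttAGatg
Srsf5 intron, chr12:80947866-80949094, plus strand, 5' site: cagGTttgttga
Srsf5 intron, 3' site: taattgtcttgtgttaAGgat
The 5' sites of the downstream introns of Clk1 and Clk4 were the same at 12 of 12 positions, and those of the upstream introns at 10 of 12. The 3' sites were not scored, and the printed letters differ at several positions. The upstream intron measured 871 bases in Clk1 and 1055 bases in Clk4, and the downstream intron 387 and 391 bases.

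RefSeq promoter windows (GRCm38.p6, 250 bases before to 50 after the start) were matched for 8 of the 10 genes. The letters TGACG, searched on both strands, occurred in 6 of the 8, against 20.8% of 32851 windows. GGGCGG also occurred in 6 of the 8, against 35.7% of windows, and CCGGAAG in 3 of the 8, against 8.86%. A match of letters is a description of the sequence and not of binding. Windows of Clk4 and Srsf5 are printed, as a member that was much lower in CV livers and the member that differed least, with matches in capitals.
Clk4 promoter, chr11:51262864-51263163, plus strand: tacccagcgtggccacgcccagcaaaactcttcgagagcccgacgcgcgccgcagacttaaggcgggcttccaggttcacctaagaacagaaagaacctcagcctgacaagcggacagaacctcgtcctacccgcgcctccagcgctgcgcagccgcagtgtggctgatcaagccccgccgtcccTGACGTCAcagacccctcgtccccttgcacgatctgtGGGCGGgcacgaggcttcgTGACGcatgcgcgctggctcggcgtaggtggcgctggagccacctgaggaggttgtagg
Srsf5 promoter, chr12:80945249-80945548, plus strand: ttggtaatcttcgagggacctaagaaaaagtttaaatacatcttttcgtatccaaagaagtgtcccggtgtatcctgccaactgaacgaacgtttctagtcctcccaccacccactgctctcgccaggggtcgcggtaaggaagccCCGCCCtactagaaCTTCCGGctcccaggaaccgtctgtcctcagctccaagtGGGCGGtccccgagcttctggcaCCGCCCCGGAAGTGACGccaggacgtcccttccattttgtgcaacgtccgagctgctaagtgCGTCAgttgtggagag
Both windows held TGACG and GGGCGG, while CCGGAAG matched 2 times in Srsf5 and 0 times in Clk4.

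Depth ranged from 5993619 to 10975691 reads in GF and from 8890529 to 15290835 reads in CV libraries, and a member had between 79 and 7694 reads in a library. The libraries differed in composition along with the condition. Mitochondrial ribosomal RNA took 9.36% to 16.4% of reads in GF and 1.39% to 6.32% in CV libraries, with a Wilson 95% interval of at most 0.0296 percentage points to either side (counting error only). Together with Lars2, Gm23935, Gm15564, Malat1 and Gm42418, which make up 7 abundant loci, the share was 41.8% to 69.4% in GF and 5.13% to 21.5% in CV libraries. The 7 loci were picked for being abundant in GF libraries with a much larger mean share there than in CV libraries. A higher share in GF was therefore built into their choice and is only described. Among cell type markers, blood genes summed to 2781 to 32901 normalized counts in GF and 916 to 3160 in CV livers (4 of 5 tested lower), lymphocyte genes to 213 to 355 and 60.2 to 91.4 (5 of 5 tested lower, 3 below the filter on low values), and hepatocyte genes to 129006 to 604541 and 505453 to 715293 (6 of 9 higher, by limma at an adjusted p under 0.05). Macrophage genes were higher for 5 of 7, endothelial genes lower for 2 of 6, stellate cell genes 1 higher and 1 lower of 7, and bile duct genes called for 0 of 5. Of all genes tested, 28.7% were called lower and 32.3% higher. In males alone, hepatocyte genes were called for 0 of 9 and blood genes for 1 of 5, where 29.5% of all genes were called. In females these counts were 5 and 4, where 55.8% were called. Lymphocyte genes were called for 5 of 5 and macrophage genes for 3 of 7 in either sex. No marker was at 0 in all libraries. The part of composition and of cell types in the results was not tested, and in bulk liver, fewer cells of a type and less RNA per cell cannot be told apart. The library labelled CV male 3 had 2382 normalized counts of Xist and 0 reads of Y-linked genes, which goes against its label. The male medians, the counts of separated groups, the male difference of each gene and the sex tests are therefore also given without it. Ratios, levels per kilobase, the order of mice within groups and the comparison of the CV minus GF difference between the sexes include it.

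All 10 splicing regulators were lower in CV than in GF livers, in males and in females. The median of their log2 differences (CV minus GF) was -2.15 over both sexes, a level 4.43 times higher in GF, beside a median of 0.07 over the 11782 genes tested. In males the median was -1.80 (all genes 0.06), and -1.90 without CV male 3. In females it was -2.52 (all genes 0.08). Values are normalized read counts, scaled by the authors to a size factor per library, and each difference is taken on log2(value + 1) with the standard error of a fit over all 12 libraries. Of all genes tested, limma called 61.1% over both sexes (28.7% lower and 32.3% higher in CV), 29.5% in males (15.4% lower and 14.1% higher, or 13.2% and 12.1% without CV male 3) and 55.8% in females (26.0% lower and 29.8% higher).

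**Figure D1:**
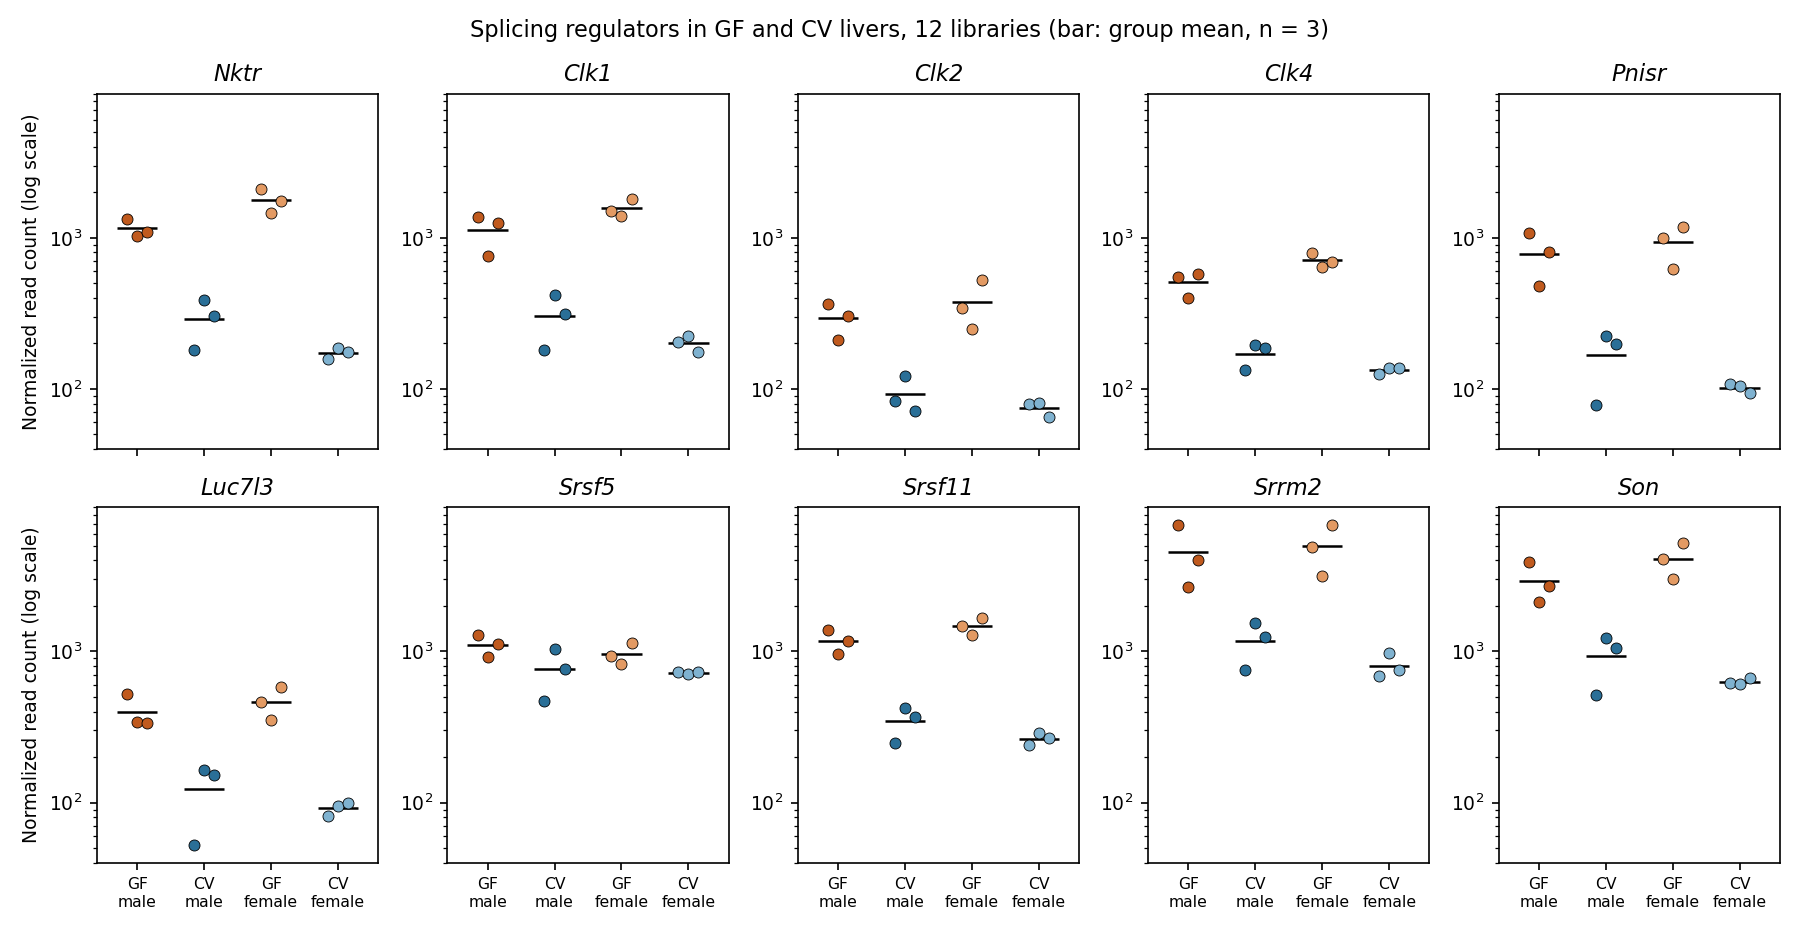
Normalized read counts (log axis) of the 10 splicing regulators in each library of the 4 groups, with points for single mice and bars for group means. GF points lie above CV points of the same sex for every gene except Srsf5 in males, where a CV mouse reached 1038 and a GF mouse 917.

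Clk1 (chr1:58410189-58424066, minus strand) encodes a CDC-like kinase that phosphorylates SR proteins. It measured 1381, 752 and 1246 normalized counts in GF males and 181, 417 and 314 in CV males, and 1511, 1391 and 1800 in GF females and 205, 224 and 176 in CV females. GF and CV mice did not overlap in either sex. The log2 difference, CV minus GF, was -1.92 ± 0.30 (SE) in males and -2.95 ± 0.30 in females (n = 3 per group throughout). Clk4 (chr11:51261730-51281766, plus strand), a related kinase, stood at 551, 398 and 577 in GF males against 133, 196 and 186 in CV males, and at 793, 641 and 690 in GF females against 126, 137 and 138 in CV females. Its groups were also apart, with differences of -1.56 ± 0.23 and -2.39 ± 0.23. Clk2 (chr3:89164795-89176921, plus strand), the least abundant of the 3 kinases, read 365, 212 and 303 in GF males and 83.3, 122 and 71.8 in CV males. In females it read 343, 250 and 529 in GF and 79.5, 80.6 and 65.6 in CV. The difference of Clk2 was -1.66 ± 0.30 in males and -2.24 ± 0.30 in females.

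Ratios between members do not depend on how libraries are scaled. Clk1 over Clk4 was 1.89 to 2.61 in GF (median 2.16, 6 mice) and 1.27 to 2.13 in CV (median 1.63), with overlap between the conditions. Clk2 over Clk1 was 0.180 to 0.294 in GF (median 0.254) and 0.228 to 0.460 in CV (median 0.366), again with overlap.

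Nktr (chr9:121719169-121756843, plus strand) encodes a large cyclophilin with an arginine- and serine-rich part, and showed the widest gap of the set in females. It measured 1329, 1034 and 1095 in GF males and 181, 390 and 304 in CV males. In females the values were 2097, 1452 and 1748 in GF and 159, 187 and 176 in CV, so that the lowest GF female was 7.75 times the highest CV female. The difference of Nktr was -2.04 ± 0.27 in males and -3.32 ± 0.27 in females. Pnisr (chr4:21847583-21876475, plus strand), named for its binding to pinin and rich in serine and arginine, had 1069, 479 and 809 in GF males, 78.6, 224 and 198 in CV males, 996, 625 and 1183 in GF females and 109, 104 and 93.9 in CV females. Its difference was the largest of the 10 over both sexes, at -2.71 ± 0.26, although no retained-intron transcript was annotated for it. Luc7l3 (chr11:94287890-94321988, minus strand) is a relative of a yeast U1 snRNP protein that acts at 5' splice sites. Its values were 523, 341 and 336 in GF males, 52.6, 164 and 153 in CV males, 463, 351 and 585 in GF females and 82.0, 95.4 and 99.9 in CV females. GF and CV mice did not overlap for Pnisr or Luc7l3, and Luc7l3 differed by -2.06 ± 0.25 over both sexes.

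Srsf11 and Srsf5 are both SR proteins, and their differences were unlike in size. Srsf11 (chr3:158010473-158036639, minus strand) measured 1393, 958 and 1165 in GF males, 248, 422 and 369 in CV males, 1469, 1287 and 1666 in GF females and 241, 288 and 266 in CV females. Its difference was -1.77 ± 0.25 in males and -2.47 ± 0.25 in females. Srsf5 (chr12:80945504-80950507, plus strand) measured 1285, 917 and 1122 in GF males and 473, 1038 and 767 in CV males, and these groups overlapped. In females Srsf5 was 936, 830 and 1131 in GF and 726, 706 and 726 in CV, apart by a factor of 1.14 between the nearest mice. The difference of Srsf5 was -0.60 ± 0.27 in males and -0.41 ± 0.27 in females. Srsf5 over Srsf11 was 0.637 to 0.964 in the 6 GF mice (median 0.801) and 1.91 to 3.01 in the 6 CV mice (median 2.45), with no overlap. Srsf5 was also the member whose direction rested on the scaling: scaled to all reads, its difference was 0.052.

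Srrm2 (chr17:23790532-23824741, plus strand) and Son (chr16:91647506-91679221, plus strand) encode the large proteins that hold nuclear speckles together. Srrm2 had 6890, 2651 and 4023 in GF males and 752, 1535 and 1247 in CV males, with 4909, 3163 and 6858 in GF females and 683, 977 and 752 in CV females. Son had 3893, 2115 and 2700 in GF males and 513, 1220 and 1055 in CV males, with 4065, 3003 and 5210 in GF females and 616, 611 and 664 in CV females. Conditions were apart for both scaffolds in either sex. Differences were -1.89 ± 0.37 in males and -2.57 ± 0.37 in females for Srrm2, and -1.69 ± 0.33 and -2.66 ± 0.33 for Son. Son over Srrm2 had a median of 0.779 in GF and 0.820 in CV mice, and its values overlapped between the conditions.

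**Figure D2:**
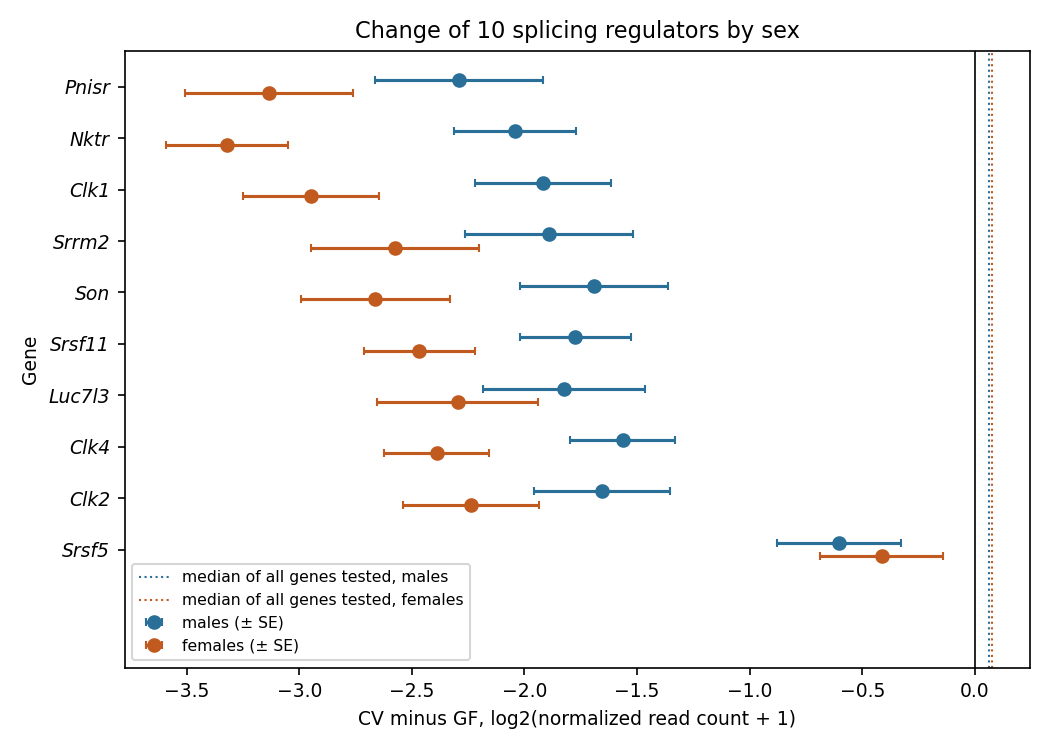
CV minus GF differences of log2(normalized read count + 1) for each gene, males and females apart, with bars for the standard error and dotted lines for the medians of all genes tested (0.06 and 0.08). Points of 9 genes lie between -1.56 and -3.32, and Srsf5 lies at -0.60 and -0.41.

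All 3 GF libraries were above all 3 CV libraries for 9 of the 10 genes in males, where 21.1% of all genes did so (9 genes and 24.5% without CV male 3), and for 10 of 10 in females, where 31.0% did. All 6 GF libraries were above all 6 CV libraries for 9 genes, Srsf5 being the exception, beside 15.7% of all genes. These counts used the contrast the genes were chosen on. The difference was larger in females than in males for 9 of 10 genes, again except Srsf5, and in 77.4% of the 4772 genes that were lower in both sexes. The share of the 7 abundant loci ran from 41.8% to 51.7% in GF males and from 58.5% to 69.4% in GF females. In CV it ran from 5.13% to 21.5% in males and from 5.52% to 7.66% in females. With that share as a covariate the median difference was -0.50 in males and 0.16 in females. The part of composition in the difference between the sexes was not tested. The male difference minus the female difference ran from -0.19 ± 0.39 for Srsf5 to 1.28 ± 0.38 for Nktr, and is given with no test because the genes were chosen on the contrast within each sex. Without CV male 3 the male differences were -2.11 for Nktr, -1.98 for Clk1, -1.49 for Clk2, -1.63 for Clk4, -2.48 for Pnisr, -2.06 for Luc7l3, -0.65 for Srsf5, -1.84 for Srsf11, -1.96 for Srrm2 and -1.83 for Son.

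Per kilobase of exon, Srrm2 was highest in GF livers, at 352 normalized counts in males and 388 in females, and Srsf5 was next in males, at 278, whereas Son was next in females, at 275. In CV livers Srsf5 was highest at 190.4 in males and 180.3 in females, with Srrm2 after it at 91.7 and 62.6. The lowest levels per kilobase in CV livers were those of Nktr, at 13.7 and 8.18. Neighbours in the order overlapped in many places: the SD of Srrm2 in GF males was 2163 on a mean of 4521 normalized counts. Exon length counted bases of all annotated transcripts, retained introns among them.

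In 3 of the 4 groups, most members were highest or lowest in the same mouse. GF male 1 held the highest value of its group for 9 of 10 genes and GF male 2 the lowest for 9, and GF female 2 held the lowest for 10. CV male 2 was highest in its group for 10 genes and CV male 1 lowest for 9. Among CV females no mouse stood out, with the highest value for 2, 5 and 3 genes and the lowest for 5, 2 and 3. The geometric mean of the 10 genes was 193, 406 and 329 normalized counts in CV males, 217, 238 and 221 in CV females, 1259, 746 and 993 in GF males, and 1271, 969 and 1490 in GF females. CV males 2 and 3, with 5.89% and 6.32% of reads from mitochondrial ribosomal RNA against 1.39% to 1.81% in the other 4 CV libraries, were both above those 4 for 9 of the 10 genes, and so were 21.5% of all genes. With that share as a covariate, the median difference of the 10 genes was -1.17, with standard errors 3.03 to 3.66 times as large, and 0 of 11782 genes were called. Since 93.5% of the variance of the share lay between the groups, the condition and the share cannot be told apart.

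**Figure D3:**
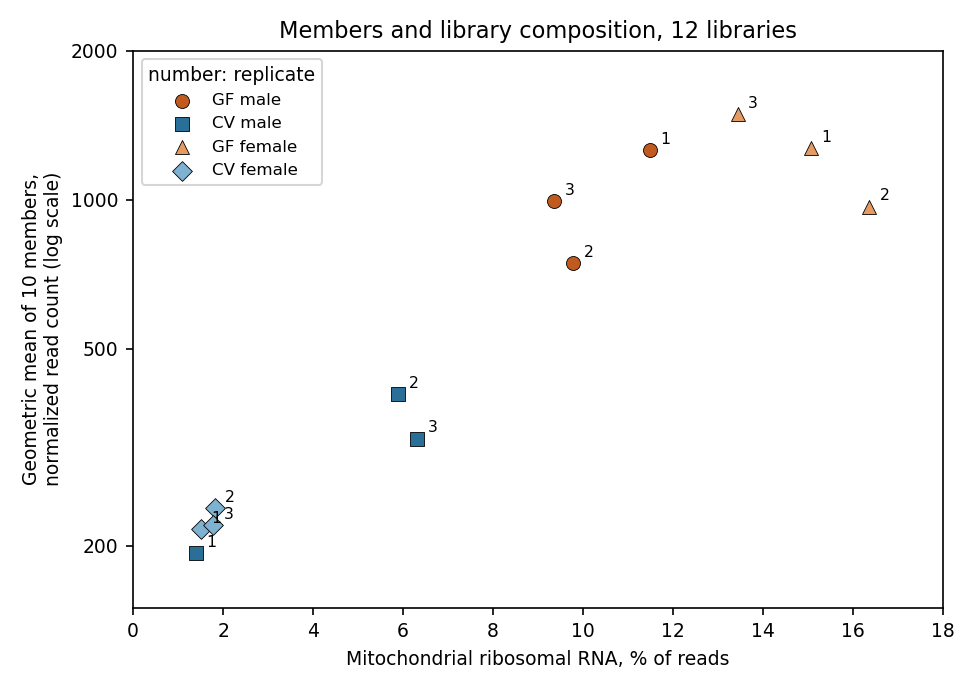
Geometric mean of the 10 genes in normalized read counts (log axis) against the percent of reads from mitochondrial ribosomal RNA, with a point for each of the 12 libraries, numbered by replicate. GF libraries lie at 9.36% to 16.4% and 746 to 1490 counts, CV libraries at 1.39% to 6.32% and 193 to 406 counts.

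Sex played no part in the choice of the genes and was tested with limma, with Benjamini-Hochberg adjustment over all genes. None of the 10 was called in GF, in CV or over both conditions, where 1.63%, 0.0594% and 1.16% of all genes were called, and edgeR and DESeq2 called 0 as well. Without 1 library at a time, the genes called of all those tested numbered from 49 (without GF male 2) to 722 (without GF female 2) in GF and from 3 to 77 (without CV male 3) in CV. In GF livers 9 of 10 were lower in males, from -0.61 ± 0.27 for Nktr (adjusted p = 0.252) to 0.20 ± 0.27 for Srsf5. In CV livers all 10 were higher in males, by 0.01 for Srsf5 to 0.67 ± 0.27 for Nktr (adjusted p = 0.889). The CV males were not alike in this: the geometric mean of the 10 genes was 193 in CV male 1, below the 217 to 238 of CV females. It was 406 in CV male 2 and 329 in CV male 3. At an unadjusted p under 0.05, Nktr passed in GF and in CV, 1 gene each, and 0 passed over both conditions, and without CV male 3 Nktr passed in GF and 0 genes passed in CV. Those unadjusted shares were 17.6%, 5.10% and 11.0% of all genes. Without CV male 3, 9 of the 10 were higher in males in CV livers, which rested on CV male 2, as CV male 1 lay below the CV females in geometric mean. Limma then called 2.29% of genes in GF and 0.653% in CV and again 0 members, with a smallest adjusted p of 0.266 in GF.

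The other genes of splicing were read from 6 lists that left out the 10 members, and differences were tested over both sexes with limma. The lists were chosen with earlier results of these data known, and contrast and libraries were those of the members. Their calls are therefore no independent evidence on the members. Of 139 genes tested, 70 were lower and 20 higher in CV livers, where 28.7% of all genes were lower and 32.3% higher. The lists differed in their counts. SR-related and speckle proteins were lower for 29 of 30, with a median log2 change of -1.52, and SR protein kinases for 6 of 9, with a median of -1.10 and 0 higher. The kinase list was broad, with Prpf4b and several cyclin-dependent kinases in it, so its counts do not stand for kinases of SR proteins alone. Clk3 was among its genes that did not pass. SR proteins were lower for 8 of 10 and higher for 1, with a median of -0.74. The core spliceosome had 9 lower and 10 higher of 42 (median 0.03), hnRNP proteins 8 lower and 4 higher of 23 (median -0.13), and RNA surveillance 10 lower and 5 higher of 25 (median -0.37). The lower calls of the core spliceosome and of hnRNP proteins, and the higher calls of the core spliceosome, were not far from the share over all genes. Scaled to all reads, which moved the median of all genes to 0.62 and the share called to 13.7% lower and 50.3% higher, the SR-related list still had 19 lower and 1 higher and the kinases 6 lower and 0 higher. On that scale hnRNP proteins had 1 lower and 11 higher, the core spliceosome 2 and 21, and RNA surveillance 6 and 12, and SR proteins 3 and 1, so the balance of higher and lower calls in the first 3 of these rested on the scaling.

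**Figure D4:**
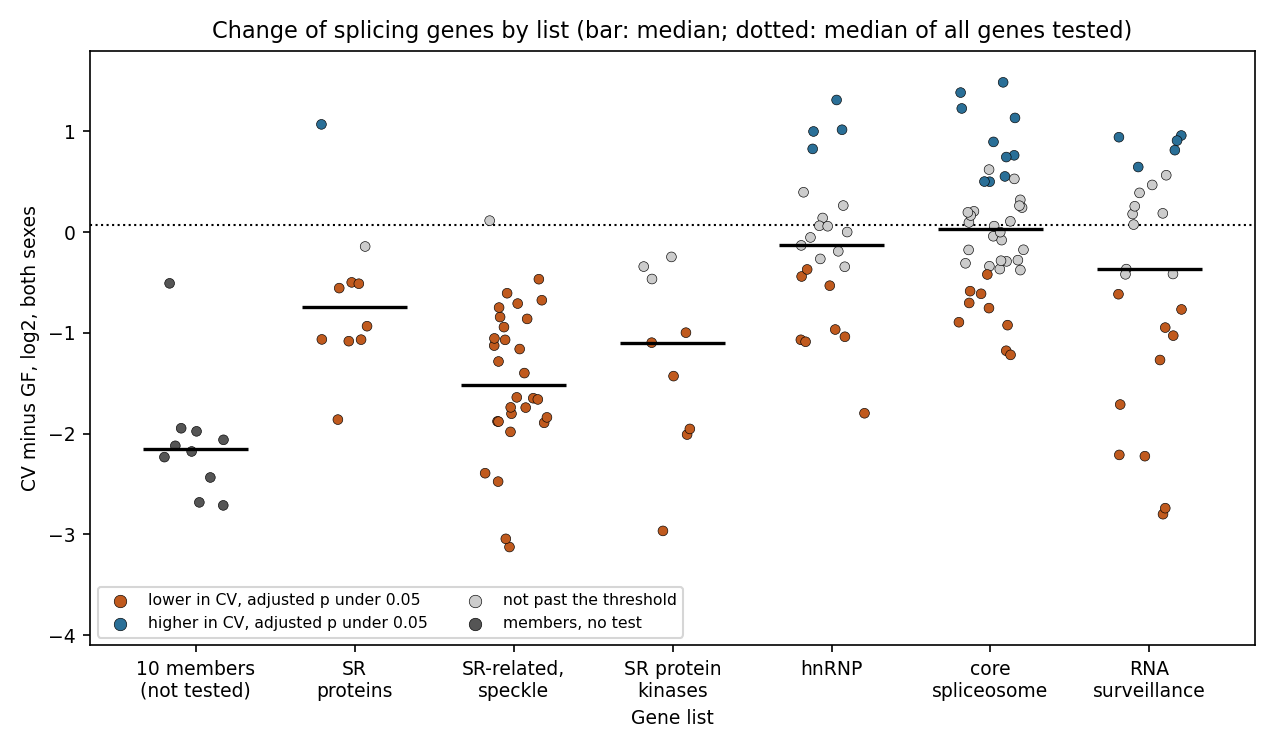
CV minus GF log2 differences over both sexes of the 10 members (not tested) and of the genes of 6 splicing lists, with a point for each gene, coloured by call (adjusted p under 0.05, limma), bars for list medians and a dotted line for the median of all genes (0.07). Medians run from -1.52 for SR-related and speckle proteins to 0.03 for the core spliceosome.

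In the SR-related list, Luc7l2, a relative of Luc7l3, changed by -3.04 ± 0.25 (adjusted p = 3.88e-07), and Ccnl1, the cyclin partner of CDK11 kinases, by -2.48 ± 0.19 (adjusted p = 3.26e-07). Rnps1 was the gene of that list that did not pass, at 0.11 ± 0.16. Among kinases, Prpf4b, which acts on the spliceosome, changed by -2.96 ± 0.23 (adjusted p = 2.89e-07) and Cdk11b by -2.01 ± 0.21 (adjusted p = 1.61e-06). Tra2a and Tra2b, SR-like regulators of exon inclusion, changed by -1.86 ± 0.22 and -1.08 ± 0.14, whereas Srsf9 rose by 1.07 ± 0.22 (adjusted p = 0.000503).

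Among hnRNP proteins, which bind nascent RNA, Hnrnph1 changed by -1.80 ± 0.17 and Hnrnpdl by -1.07 ± 0.20, while Hnrnpab rose by 1.31 ± 0.22 and Hnrnpf by 1.00 ± 0.20. In the core spliceosome, Sf3b1, a U2 snRNP protein at the branch site, changed by -1.18 ± 0.15 and Prpf3 of the tri-snRNP by -1.22 ± 0.18. Snrpb, a protein of the Sm ring, rose by 1.49 ± 0.17, and Sf3b6 by 1.23 ± 0.19. In RNA surveillance, Zcchc7, a cofactor of the nuclear exosome, changed by -2.80 ± 0.25 and Smg1, the kinase of nonsense-mediated decay, by -2.21 ± 0.22, whereas the exosome subunits Exosc5 and Exosc7 rose by 0.94 ± 0.18 and 0.81 ± 0.16. Each gene named here passed an adjusted p under 0.05 by limma.

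Genes listed as relatives of the members differed between CV and GF livers to unequal extents. Sequence identity was not computed, so how close they are, as with Srrm1 and Srrm2, was not established here. Clk3 stood at 218 ± 71.3 (SD) in GF males, 149 ± 39.5 in CV males, 244 ± 83.7 in GF females and 177 ± 18.4 in CV females, and its difference of -0.47 ± 0.22 did not pass (limma, adjusted p = 0.0712). Ppig, a cyclophilin like Nktr, changed by -0.86 ± 0.20, Luc7l by -1.13 ± 0.18, Srsf4 by -0.56 ± 0.20, Srsf6 by -0.93 ± 0.15, Srek1 by -2.39 ± 0.20 and Srrm1 by -1.28 ± 0.18, all 6 past the threshold, where 28.7% of all genes were called lower. Set beside the members, Clk3, Ppig, Luc7l and Srrm1 had smaller differences than Clk1, Nktr, Luc7l3 and Srrm2, whereas Luc7l2 (-3.04) had a larger one than Luc7l3 (-2.06), Srek1 (-2.39) than Srsf11 (-2.12), and Srsf4 and Srsf6 than Srsf5 (-0.51). The difference between a member and its relative was not tested. Nuclear noncoding RNAs, listed because they share the nuclear place of retained-intron transcripts, were lower for 4 of 4 tested, from Snhg11 at -2.73 ± 0.49 to Malat1 at -4.25 ± 0.42. Malat1 is also among the 7 abundant loci, which were picked for a larger share in GF libraries.

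Annotation of retained introns and the change between conditions were set side by side over all other coding genes. The median log2 change was 0.32 in 4376 genes with no retained-intron transcript, 0.13 in 4213 genes with 1 to 2, -0.20 in 2103 genes with 3 to 5 and -0.57 in 506 genes with 6 or more. Genes called lower made up 19.4%, 25.9%, 38.6% and 53.4% of these classes, and genes called higher 38.7%, 34.8%, 25.4% and 13.2%. After removal of trends with transcript length and GC content the medians were 0.21, 0.14, -0.09 and -0.37. Genes are not independent replicates, and no test was made across them. Of the 10 members, which were picked as genes that keep introns, 7 had 3 or more such transcripts, against 23.3% of coding genes. Pnisr, with 0, had the largest difference of the set.

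**Figure D5:**
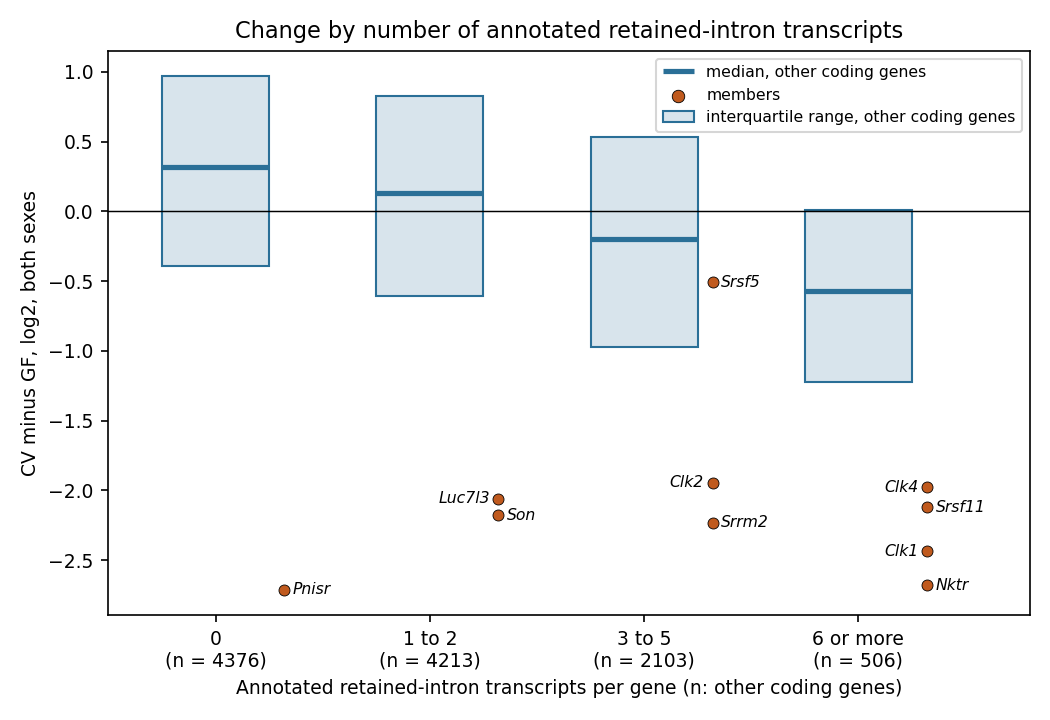
CV minus GF log2 differences over both sexes of other coding genes by their number of annotated retained-intron transcripts, with boxes for the interquartile range, bars for medians and points for the 10 members. Class medians go from 0.32 to -0.57, and every member but Srsf5 lies below the box of its class.

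Members were long transcripts of low GC content for the most part. Longest transcripts reached 8950 bases in Nktr, 8864 in Srrm2 and 8731 in Son, and 8 of 10 were above the coding median of 3424 bases. GC content was below the coding median of 49.5% in 8 of 10, from 37.0% in Nktr to 55.4% in Clk2. With length and GC trends removed, their median difference was -1.75 over both sexes. In the annotation 4 of the 10 overlapped a gene on the opposite strand (Nktr, Clk4, Srrm2 and Son) and 3 a gene on the same strand (Clk4, Srsf11 and Srrm2), and whether reads were counted by strand is not given in the sources used here, so the counts of these 5 genes are less certain.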

How the data were processed

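Polyadenylated RNA of 12 mouse livers was sequenced from stranded libraries. The authors deposited 1 table of normalized read counts per gene (a signal, each count divided by a size factor of its library). The submitters' processing notes name HTSeq 0.6.1p1, DESeq2 and GRCm38, while the aligner and the strand setting are not given in the sources used here. Dividing each deposited value by that of a single read gave a whole number in 100% of cases (tolerance 0.01 reads, wider in proportion at high counts), and reads recovered this way gave the depths and the count tests.

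Genes with a mean value of at least 10 were fitted as log2(value + 1) with limma 3.58.1 in R 4.3.3, with 1 mean for each of the 4 groups, a trended prior and Benjamini-Hochberg adjustment (threshold 0.05). edgeR 4.0.16 on the recovered reads called 7634 of 12555 genes between CV and GF. DESeq2 1.42.0 and limma-voom were other alternatives. The fit was tested on simulated data. Members and lists were chosen with earlier results of these data known. Genes named beside the members were the 2 with the smallest adjusted p in each direction of each list, the genes listed as relatives of members and the noncoding RNA list. Rnps1 was named after its values were seen. Skiv2l2 was not matched, and Srsf12, Srpk3 and Meg3 were below the filter. Replicate numbers were used as names only. P-values measure the spread between these mice.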

Additional observations from a re-analysis of the deposited data

How the results depend on the processing

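The median log2 change of the 10 members over both sexes (-2.15) was below 0 under all 30 alternatives that gave it, 2 of which, both on 7 abundant loci, were chosen after seeing the data. The members were chosen on this contrast and the alternatives reuse the same libraries, so this sign is no independent evidence. It was near 0, with 5 of 10 members below 0, when the share of the 7 loci was a covariate. Scaled to all reads it was -1.59 (females -1.71), with 37 list genes lower and 46 higher and Srsf5 at 0.052. Scaled to reads outside mitochondrial ribosomal RNA it was -1.74 (females -1.92), with 46 lower and 37 higher. Scaled outside the 7 loci it was -2.61 (females -3.14), with 93 list genes lower and 10 higher. With length and GC trends removed it was -1.75 (females -2.09). With the mitochondrial ribosomal RNA share as a covariate it was -1.17 (males -1.20, females -1.13), Srsf5 was at 0.57, and limma called 0 list genes lower and 0 higher (17 and 8 at an unadjusted p under 0.05). With the share of the 7 loci as a covariate it was -0.17 (males -0.50), the female median turned to 0.16, Pnisr was at 0.040, Luc7l3 at 1.04, Srsf5 at 1.29, Srrm2 at 0.21 and Son at 0.29, and 0 list genes were called lower and 0 higher (8 and 0 unadjusted). Standard errors of the members were then 3.14 to 4.32 times as large, and groups accounted for 95.5% of the variance of the share. Same-numbered mice did not deviate together (correlations from -0.228 to 0.0188, 0 of 6 highest with their own number), and the replicate block gave 69 list genes lower and 19 higher and changed no call of a member. Without 1 library at a time the median ran from -2.25 to -1.997 over both sexes, from -2.02 to -1.57 in males and from -2.71 to -2.39 in females, with 64 to 71 list genes lower and 16 to 21 higher. The shares of all genes were then 26.3% to 29.5% lower and 29.5% to 33.7% higher. edgeR gave 72 lower and 17 higher (31.3% and 29.5% of all genes), and DESeq2 70 and 17 (28.3% and 23.4%). The male-female tests called 0 members under every alternative, with smallest adjusted p of 0.107 in GF and 0.0621 in CV.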
